A study of Homo sapiens with 12 samples.

Results

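NGP, an established human neuroblastoma cell line with amplified MYCN, was treated with the METTL3 inhibitor STM2457 at 1 µM or with DMSO, the solvent control, for 6 days, and polyadenylated RNA was sequenced. The comparison used 3 STM2457 and 3 DMSO libraries, chosen by the cell line and treatment in their titles, which are 6 of the 12 libraries of the study. All 6 were labelled wild type, so the labels name no engineered gene change in either group, and both groups came from a single cell line. The other 6 libraries are of SK-N-BE2, another MYCN-amplified neuroblastoma line, which received 12 µM STM2457 or DMSO for the same 6 days. The labels do not say that the replicates came from separate cultures, so p-values measure the spread between these libraries, which may be technical.

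METTL3 is the catalytic subunit of the nuclear methyltransferase complex, which adds N6-methyladenosine (m6A) to transcripts, and STM2457 occupies its cofactor pocket. The mark is read by proteins that alter splicing, translation and decay of the transcript, so that a loss of methylation can raise or lower a transcript directly or through other genes. Neuroblastoma arises from the sympathoadrenal lineage of the neural crest, and its cells range from an adrenergic state, with neuronal and catecholamine genes, to a mesenchymal state rich in matrix genes.

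The 6 libraries held between 47242379 and 51295198 counted reads over 19923 genes, and the ranges of both groups overlapped. Of 10 adrenergic neuroblastoma markers, 9 had a mean of at least 133 CPM (a read count scaled to library size, here with TMM, edgeR's trimmed mean of M-values) in both groups, and the transcript of TH, tyrosine hydroxylase, was near absent at 0.521 ± 0.386 CPM in the DMSO group and 0.857 ± 0.328 CPM in the STM2457 group. No reads were found for PTPRC and CD3E (immune), PECAM1 (endothelial) or KRT5 (epithelial). Other markers of these types had reads. CD68 (immune) had a mean of 6.33 CPM with DMSO and 6.27 CPM with STM2457, and EPCAM (epithelial) 1.88 and 1.42 CPM. LYZ (immune) and KDR (endothelial) are described with the matrix genes. Means of CDH5, VWF, CDH1 and KRT19 were at most 0.42 CPM in either group. METTL3 and MYCN were examined as the target and the driver of the line. METTL3 measured 41.1, 45 and 37.4 CPM with DMSO and 77.7, 75.4 and 80.2 CPM with STM2457, a 1.89-fold difference (log2 fold change 0.92, SE 0.11, adjusted p 0.0003 by edgeR), without overlap of the groups. MYCN measured 3885, 3869.8 and 4369 CPM with DMSO and 3861, 4490.2 and 3781 CPM with STM2457, the groups overlapped, and its log2 fold change was 0.00 (SE 0.11).

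DMSO replicate 1 stood apart from the other DMSO libraries. In a principal component analysis of the 6 libraries, component 1 held 74.9% of the variance and separated STM2457 from DMSO. Component 2 held 12.2% and placed DMSO replicates 1, 2 and 3 at 39.1, -27.2 and -13.2, with the STM2457 libraries between -5.15 and 6.11. The deviation of DMSO replicate 1 followed exon length. Its median log2 difference from the other DMSO libraries was 0.35 in the fifth of genes with the shortest exon length (135 to 2975 bases) and -0.32 in the fifth with the longest (8529 to 118976 bases). DMSO replicate 2 ran the other way, from -0.25 to 0.24, and DMSO replicate 3 from -0.11 to 0.09, each measured against libraries that include DMSO replicate 1. Whether DMSO replicates 2 and 3 are free of a trend with length was not tested. Among genes of at least 10 CPM, 77 differed by more than 1 on the log2 scale between DMSO replicate 1 and the other DMSO libraries, 66 of them lower, against 6 for DMSO replicate 2 and 0 for DMSO replicate 3. Results that rest on this library are therefore given with and without it.

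**Figure D1:**
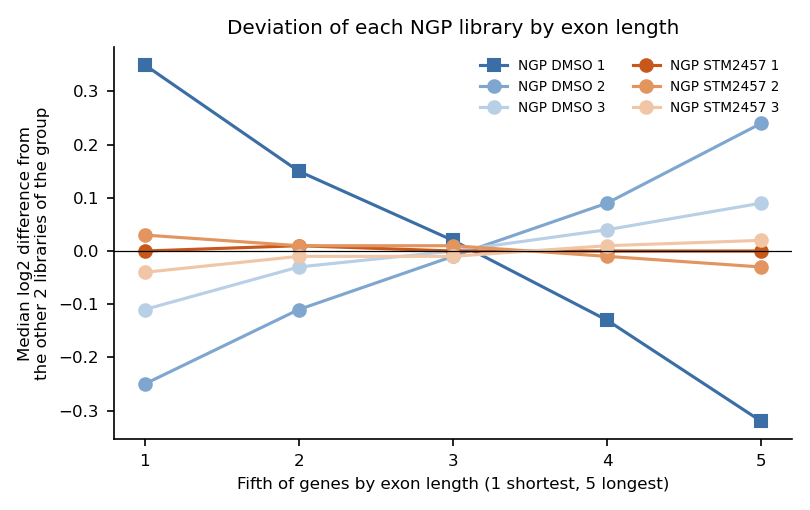
Median log2 difference of each NGP library from the other 2 libraries of its group, for 5 equal groups of the tested genes ordered by exon length. The line of DMSO replicate 1 falls from 0.35 to -0.32, and the STM2457 lines stay within 0.04 of 0. The lines of DMSO replicates 2 and 3 rise, from -0.25 to 0.24 and from -0.11 to 0.09.

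The response to STM2457 covered a large share of the transcriptome. Of 13610 genes tested with edgeR's quasi-likelihood test and Benjamini-Hochberg adjustment, 5671 (41.7%) were called at an adjusted p under 0.05, 2644 (19.4%) higher and 3027 (22.2%) lower with STM2457. Changes of at least 1 on the log2 scale were called in 809 rising and 1094 falling genes, and changes of at least 3 in 71 rising and 160 falling genes. The median log2 fold change of all tested genes was -0.03. Without DMSO replicate 1, 7897 of 13776 genes (57.3%) were called, 3805 (27.6%) higher and 4092 (29.7%) lower, and 5562 genes were called with the same sign in both fits. Calls over all genes numbered 5332 without DMSO replicate 2 and 4360 without DMSO replicate 3. They numbered 3816, 4541 and 3919 without STM2457 replicates 1, 2 and 3. Counts of a list with a library left out are to be read beside the count of all genes in that fit. Replicates of the groups did not overlap in 7448 tested genes (54.7%). Each gene named as risen or fallen had its 3 STM2457 libraries on one side of all DMSO libraries, except where an overlap is stated, and each such call held when any 1 of the 6 libraries was left out, except where a loss is stated.

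The largest rises, among genes whose groups did not overlap and reached 10 CPM in 1 of them, included secreted and cell-surface proteins. C7 (chromosome 5, 40909497 to 40984643, plus strand, GRCh38), a component of the terminal complement pathway, measured 0.988, 0.52 and 1.34 CPM with DMSO and 38.6, 30.3 and 33.6 CPM with STM2457. No DMSO library exceeded 1.34 CPM and every STM2457 library lay above 30 CPM, a 35.8-fold rise (log2 fold change 5.16, SE 0.29, adjusted p 9.71e-06 by edgeR). COL3A1 (chromosome 2, 188974373 to 189012746, plus strand), the chain of fibrillar collagen type III, measured 8.39, 6.98 and 8.91 CPM with DMSO and 234, 156 and 195 CPM with STM2457. No DMSO library reached 9 CPM, and COL3A1 rose by 4.59 (SE 0.19) on the log2 scale (adjusted p 2.61e-06 by edgeR). FN1 (chromosome 2, 215360440 to 215436073, minus strand), fibronectin, measured 16, 22.9 and 24.6 CPM with DMSO and 349, 270.2 and 322 CPM with STM2457. DMSO replicate 1 was the lowest, and the groups were far apart (log2 fold change 3.89, SE 0.19, adjusted p 4.77e-06 by edgeR).

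ITGA8, an integrin alpha chain, measured 1.09, 1.4 and 1.48 CPM with DMSO and 17.9, 13.5 and 15.7 CPM with STM2457 (log2 fold change 3.57, SE 0.19, adjusted p 7.81e-06 by edgeR). PLXNA4, a plexin that serves as a semaphorin receptor, measured 0.827, 1.36 and 0.87 CPM with DMSO and 13.1, 12.4 and 11.9 CPM with STM2457 (log2 fold change 3.61, SE 0.22, adjusted p 1.38e-05 by edgeR). MAP2K6, the kinase that activates p38 MAP kinase, measured 3.89, 5.8 and 5.5 CPM with DMSO and 65.5, 60.9 and 64 CPM with STM2457 (log2 fold change 3.65, SE 0.17, adjusted p 4.04e-06 by edgeR). In each of these 3 genes the values within a group lay close together and the groups did not overlap. AKR1C3, an aldo-keto reductase of steroid and prostaglandin metabolism, rose from 1.43 ± 0.369 to 23.3 ± 2.93 CPM (4.03 on the log2 scale), an uncertain value because near-identical AKR1C copies share reads. RIPOR3 rose from 1.23 ± 0.0743 to 26.4 ± 8.86 CPM, AHNAK, a very large scaffold protein, from 4.7 ± 0.501 to 50.4 ± 7.84 CPM, and FOS, a subunit of the AP-1 transcription factor, from 2.04 ± 1.14 to 23.6 ± 6.04 CPM (SD, n = 3).

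The largest falls went close to the detection limit. KLHDC7B (chromosome 22, 50545899 to 50551023, plus strand) measured 69.7, 82.1 and 65.5 CPM with DMSO and 0.258, 0.47 and 0.0393 CPM with STM2457. All DMSO libraries were above 65 CPM and all STM2457 libraries below 1 CPM (log2 fold change -8.16, SE 0.41, adjusted p 5.97e-06 by edgeR). GDF15 (chromosome 19, 18374731 to 18389176, plus strand), a secreted stress-induced member of the TGF-beta superfamily, measured 72.9, 61.1 and 52.6 CPM with DMSO and 0.301, 0.769 and 0.669 CPM with STM2457 (log2 fold change -6.73, SE 0.29, adjusted p 3.06e-06 by edgeR). FGF21 (chromosome 19, 48755524 to 48758333, plus strand), a hormone induced by metabolic stress, measured 16.3, 12.1 and 14.9 CPM with DMSO and 0.172, 0.171 and 0.157 CPM with STM2457 (log2 fold change -6.42, SE 0.23, adjusted p 1.59e-06 by edgeR). The FGF21 value in each STM2457 library rests on few reads, 24 over the group, against 2168 in the DMSO group. FUT1, a fucosyltransferase that makes the H antigen, measured 74.5, 64 and 74.9 CPM with DMSO and 0.731, 1.22 and 0.866 CPM with STM2457, an 75.7-fold fall.

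DHRS2, a short-chain dehydrogenase, fell from 159 ± 24.3 to 2.59 ± 0.993 CPM, and TRIB3, a pseudokinase induced by ATF4, fell from 465 ± 30.5 to 13.8 ± 3.07 CPM. CDC42EP1, an effector of the GTPase CDC42, fell from 22.2 ± 4.66 to 0.613 ± 0.09 CPM, and BBC3, which encodes the pro-apoptotic protein PUMA, from 19.7 ± 5.94 to 0.596 ± 0.169 CPM. These 4 falls ran from -5.04 to -5.94 on the log2 scale. DSC1, a desmosomal cadherin, and BEST1, a chloride channel, were also among the 10 largest falls (-5.67 and -5.65), and both are uncertain because their exons overlap other genes over 18.0% and 14.6% of their length. For 16 of these 20 genes the response differed from that of SK-N-BE2 in a test over all 12 libraries, in which 30.9% of all genes were called. The genes were ranked by their change in NGP, so this count describes them and tests nothing. Line, dose and batch (the count headers carry a different batch name for each line) cannot be told apart in that comparison.

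**Figure D2:**
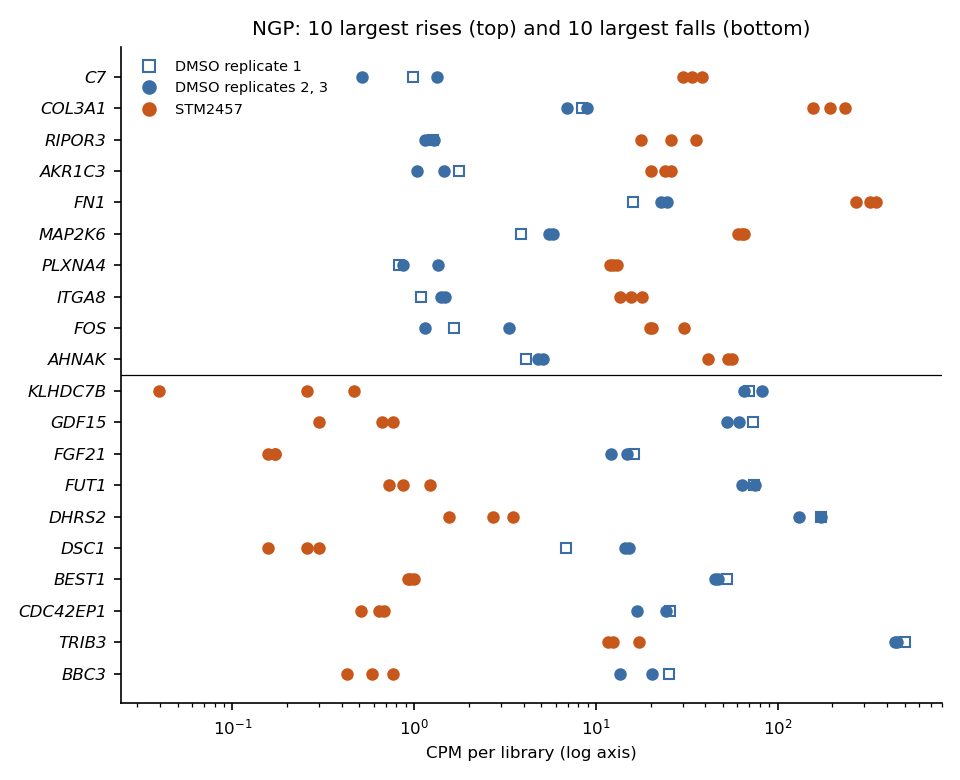
CPM in each of the 6 NGP libraries on a log axis for the 10 largest rises (top) and 10 largest falls (bottom), with DMSO replicate 1 as open squares. Each gene's STM2457 points (orange) lie to one side of its DMSO points (blue), also where DMSO replicate 1 is left out.

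The extracellular matrix genes moved mainly upward. Of 115 tested genes of collagens, matrix glycoproteins and proteoglycans, matrix processing and integrins, 47 rose and 16 fell, 54.8% called against 41.7% of all genes tested. Their median log2 fold change was 0.30, against -0.03 for all genes tested. Without DMSO replicate 1, 55 rose and 23 fell of 120 tested, with a median of 0.42. In that fit 57.3% of all genes were called, 27.6% higher and 29.7% lower. The summed level of the 144 listed genes lay between 4845 and 5045.5 CPM in the DMSO libraries and between 6688 and 7025 CPM in the STM2457 libraries, without overlap.

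Among 27 tested collagens, 10 rose and 4 fell, 37.0% higher against 19.4% of all genes and 14.8% lower against 22.2%, with 2 lower without STM2457 replicate 1 or 2. COL1A1, the main chain of collagen type I, measured 34, 27.3 and 29.6 CPM with DMSO and 130.3, 123 and 119.9 CPM with STM2457, a 4.1-fold rise (log2 fold change 2.04, SE 0.11, adjusted p 9.71e-06 by edgeR). COL4A1, a basement membrane collagen, measured 22.5, 35.3 and 33.9 CPM with DMSO and 104, 124 and 103 CPM with STM2457 (log2 fold change 1.86, SE 0.18, adjusted p 0.000126 by edgeR). The STM2457 libraries of both genes were more than 2 times as high as any DMSO library. COL22A1, a collagen of tissue junctions, rose from 0.859 ± 0.294 to 3.22 ± 0.439 CPM. COL21A1 fell from 1.25, 0.96 and 1.15 CPM to 0.0859, 0 and 0.0393 CPM, which is 6 reads in the STM2457 group. Some abundant collagens did not pass the test. COL6A1 measured 222 ± 21.4 CPM in the DMSO group and 239 ± 48.2 CPM in the STM2457 group, and COL6A2 137 ± 28.3 CPM in the DMSO group and 134 ± 33.1 CPM in the STM2457 group, with overlapping groups. Per exon length, COL3A1 rose from 1.2 to 28.9 RPKM (CPM per kilobase of exon), and COL1A1 from 3.09 to 12.7 RPKM.

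Matrix glycoproteins split. Of 41 tested, 17 rose and 7 fell, and their median was 0.05 (0.26 without DMSO replicate 1). The shares were 41.5% higher against 19.4% of all genes, and 17.1% lower against 22.2%. GPC3, a cell-surface proteoglycan, measured 8.47, 5.94 and 7.35 CPM with DMSO and 30.5, 24.7 and 26.2 CPM with STM2457 (log2 fold change 1.90, SE 0.16, adjusted p 6.82e-05 by edgeR). Decorin (DCN), a small leucine-rich proteoglycan, rose from 0.16 ± 0.121 to 1.62 ± 0.382 CPM. MGP, matrix Gla protein, named after its value was seen, went from 0 reads in the DMSO group to 46 in the STM2457 group. It was at least 15.6-fold higher against a floor of 3 reads per group. LAMA1, a laminin chain, rose by 1.93, with 11.1% of its exon length under another gene. On the other side, RELN, reelin, which guides neuronal migration, measured 48.2, 125 and 85.3 CPM with DMSO and 24, 25 and 26.1 CPM with STM2457. All STM2457 values were below all DMSO values, although the DMSO values spread more than 2-fold and DMSO replicate 1 was the lowest of them (log2 fold change -1.78, SE 0.29, adjusted p 0.00175 by edgeR). TNC, tenascin C, fell from 65.9 ± 9.49 to 24.2 ± 3.8 CPM, SDC3, syndecan 3, from 127 ± 5.17 to 41.5 ± 2.31 CPM, and LAMA5, a laminin chain, from 26.5 ± 0.341 to 12.3 ± 2.35 CPM. LAMB1 and LAMC1, the abundant laminin chains, overlapped between groups (log2 fold changes -0.15 and 0.22).

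Matrix proteases and modifying enzymes followed the same pattern, with 14 of 32 higher and 4 lower. These were 43.8% higher against 19.4% of all genes, and 12.5% lower against 22.2%. ADAMTS3, which cleaves the ends of procollagens, measured 0.968, 1.7 and 1.84 CPM with DMSO and 10.3, 11.7 and 10.9 CPM with STM2457 (log2 fold change 2.86, SE 0.24, adjusted p 6.03e-05 by edgeR). ADAMTS9 and ADAMTS1, proteases that cut proteoglycans, rose by 1.55 and 1.37 on the log2 scale. P4HA2, a subunit of the enzyme that hydroxylates proline in collagen, went against them at 43.1, 58.8 and 48.8 CPM with DMSO and 8.32, 8.09 and 6.79 CPM with STM2457. It fell by 2.70 (SE 0.16, edgeR adjusted p 1.06e-05), as did SERPINE2, a serine protease inhibitor (-1.29), and MMP17, a membrane metalloproteinase (-1.23). Among 15 integrins tested, 6 rose and 1 fell (2 fell without DMSO replicate 1). Of the integrins 46.7% were called, near the 41.7% of all genes, with 40.0% higher against 19.4% and 6.67% lower against 22.2%. ITGB5 measured 16.1, 14.4 and 12.3 CPM with DMSO and 72.2, 69.9 and 66.1 CPM with STM2457 (log2 fold change 2.29, SE 0.13, adjusted p 9.71e-06 by edgeR), and ITGA3, the laminin receptor chain that fell, 7.6, 6.22 and 6.8 CPM with DMSO and 0.473, 0.534 and 0.354 CPM with STM2457 (log2 fold change -3.92, SE 0.23, adjusted p 1.12e-05 by edgeR). ITGB1, the chain shared by most integrins, was not called at 166 ± 38.4 CPM in the DMSO group and 202 ± 7.71 CPM in the STM2457 group.

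Matrix genes are also products of fibroblasts, so the markers of other cell types were read beside them. Of 6 fibroblast markers, 4 rose, 66.7% higher against 19.4% of all genes, with a median of 1.21. The summed level of the 6 was 240 to 247 CPM in the DMSO libraries and 394 to 457 CPM in the STM2457 libraries. PDGFRB, a receptor for platelet-derived growth factor, measured 30.2, 26.1 and 34.1 CPM with DMSO and 151, 134 and 137 CPM with STM2457 (log2 fold change 2.23, SE 0.13, adjusted p 9.72e-06 by edgeR), and LUM, lumican, 6.33, 4.58 and 6.98 CPM with DMSO and 26.8, 16.7 and 23.1 CPM with STM2457. THY1 and ACTA2 were not called. Of 4 endothelial markers, KDR rose from 0.119 ± 0.104 to 2.4 ± 0.159 CPM, and PECAM1 was at 0 reads. LYZ, an immune marker with 34.7% of its exon length under another gene, rose from a mean of 0.577 to 1.53 CPM. Its call was lost without DMSO replicate 2 or any one of the STM2457 replicates (edgeR adjusted p 0.0604 to 0.102). The Schwann cell marker ERBB3 fell from a mean of 1.12 to 0.315 CPM. The epithelial markers EPCAM and KRT19 were not called. A change in the number of cells of a type and a change in RNA per cell cannot be told apart in these bulk libraries, and the part of either in the matrix result was not tested.

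**Figure D3:**
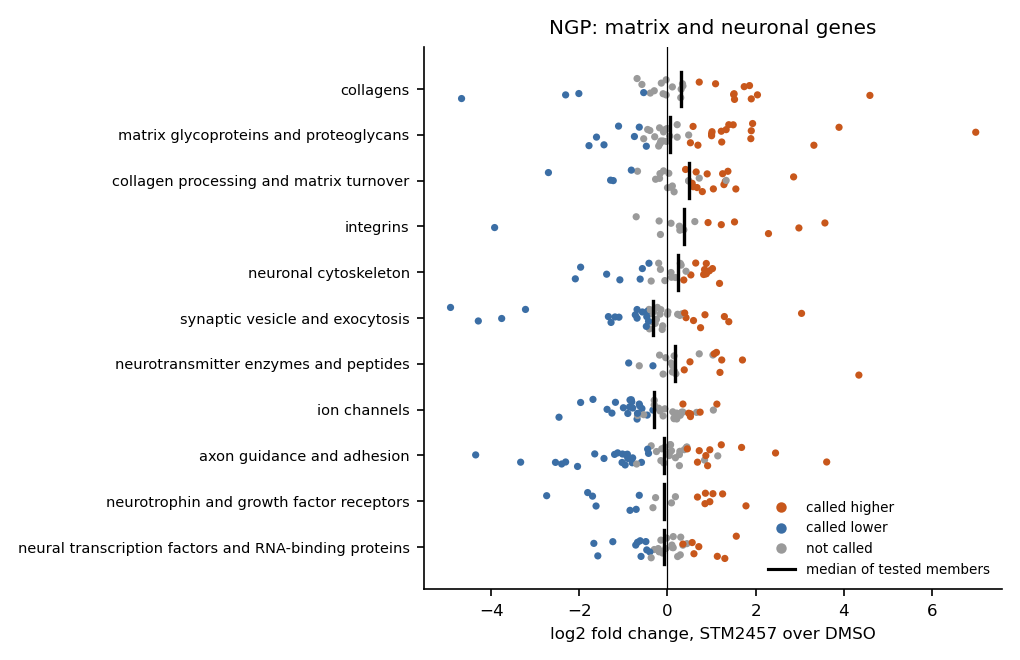
Log2 fold change of every tested member of the matrix and neuronal lists, colored by its call, with the median of each list as a black bar. Collagen processing genes have the highest median (0.48), and synaptic and ion channel genes the lowest (-0.32 and -0.31).

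All 13 protein-coding genes of the mitochondrial genome, which encode core subunits of the respiratory chain and ATP synthase, rose. Their share of all counts was 3.64%, 3.05% and 2.78% in DMSO replicates 1 to 3 and 7.16%, 6.46% and 6.82% in the STM2457 libraries. The groups did not overlap, and the means were 3.15% ± 0.44 and 6.81% ± 0.35 (SD, n = 3), a ratio of 2.16. An exact two-sided permutation test gave p = 0.1, the smallest that 3 against 3 allows. MT-CO1, a core subunit of complex IV, measured 6924, 6006 and 5535 CPM with DMSO and 16243, 14241 and 15247 CPM with STM2457 (log2 fold change 1.31, SE 0.12, adjusted p 9.58e-05 by edgeR). MT-ND5, of complex I, measured 1149, 1195 and 965 CPM with DMSO and 3062, 2611 and 2870.2 CPM with STM2457 (log2 fold change 1.37, SE 0.12, adjusted p 7.38e-05 by edgeR). MT-ND4L had the largest change, from 461 ± 151 to 1328 ± 73.2 CPM (1.53 on the log2 scale), and MT-ND1 the smallest (0.55). The call of MT-ND3 (log2 fold change 0.58, SE 0.19, adjusted p 0.0354 by edgeR) held only without DMSO replicate 1, and its adjusted p was 0.0724 to 0.125 with any other library left out. The rise of MT-ATP8 (1.5) is uncertain, since 22.2% of its length lies under MT-ATP6. These libraries were made from RNA selected by its poly(A) tail.

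Few nuclear genes of the respiratory chain were called. Of 77 tested, 13 rose and none fell, 16.9% called against 41.7% of all genes tested, and their median was 0.15. Single libraries moved this count. Without DMSO replicate 1, 46 of the 77 rose and 1 fell, with a median of 0.33. In that fit 27.6% of all genes were higher and 29.7% lower, 57.3% called in either direction. With another library left out, 8 rose and 3 fell (DMSO replicate 2), 6 rose (DMSO replicate 3), 7 rose (STM2457 replicate 1) or 8 rose (STM2457 replicate 3). Calls over all genes in these fits numbered 5332, 4360, 3816 and 3919, against 5671 with all 6 libraries. The list's genes are mostly short, and DMSO replicate 1 was the highest DMSO library for 73 of the 77. Mean log2 levels of the list, relative to the 6 libraries, were 0.26, -0.32 and -0.25 in DMSO replicates 1 to 3 and 0.12, 0.12 and 0.07 in the STM2457 libraries. The STM2457 libraries thus lay above DMSO replicates 2 and 3 and below DMSO replicate 1. With an offset that removes each library's trend with exon length, 29 rose and 2 fell, and 6572 of all 13610 genes tested were called.

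Among the nuclear subunits that rose, NDUFS5, of complex I, measured 121, 76.8 and 77.5 CPM with DMSO and 186, 167 and 184 CPM with STM2457 (log2 fold change 0.96, SE 0.18, adjusted p 0.00296 by edgeR). ATP5MC1, of the ATP synthase ring, measured 137, 89.3 and 94.9 CPM with DMSO and 207, 190.0 and 206 CPM with STM2457 (log2 fold change 0.91, SE 0.16, adjusted p 0.0025 by edgeR). NDUFA1, also of complex I, went from 22.2 ± 6.79 to 43.6 ± 5.06 CPM (log2 fold change 0.97, SE 0.20, adjusted p 0.00575 by edgeR). In each of these genes DMSO replicate 1 lay between the other DMSO libraries and the STM2457 libraries. COX6C, of complex IV, rose by 1.00, with 11.8% of its exon length under another gene. By complex, complex I had 8 of 37 higher (22 without DMSO replicate 1), complex III 1 of 9 (6), complex IV 2 of 11 (8) and ATP synthase 2 of 15 (9), and complex II had 0 of 4 (1). Of all genes tested, 19.4% were higher (27.6% without DMSO replicate 1). The most abundant nuclear subunits, ATP5F1B and ATP5F1A, were not called, at -0.29 and 0.08.

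With all 6 libraries, the share called in the other mitochondrial lists was below or near that of all genes tested (41.7%). Of 76 mitochondrial ribosomal proteins, 10 rose and 8 fell, 23.7% called, with a median of 0.04. The counts became 32 and 9 without DMSO replicate 1, where 27.6% of all genes were higher and 29.7% lower. They were 6 and 12 without DMSO replicate 2, 4 and 5 without STM2457 replicate 1, and 5 and 6 without DMSO replicate 3 or STM2457 replicate 3. MRPS6 rose from 14.6 ± 3.29 to 51.5 ± 9.76 CPM (log2 fold change 1.82, SE 0.20, adjusted p 0.000245 by edgeR), and MRPS10 fell from 84.5 ± 5.09 to 57.2 ± 2.79 CPM (-0.56). Among 33 genes of mitochondrial gene expression, import and proteostasis, 5 rose and 9 fell (42.4% called), with 4 lower without STM2457 replicate 1, 5 lower without STM2457 replicate 3, and 3 higher with any library but DMSO replicate 1 left out. HSPA9, the import motor chaperone of the matrix, measured 1395, 1366 and 1351 CPM with DMSO and 701, 746 and 713 CPM with STM2457 (log2 fold change -0.93, SE 0.09, adjusted p 0.00011 by edgeR). LONP1, a matrix protease, measured 572, 415 and 445 CPM with DMSO and 193, 227 and 180.4 CPM with STM2457 (log2 fold change -1.25, SE 0.15, adjusted p 0.000323 by edgeR). TIMM44, which tethers that motor to the import channel, fell from 126 ± 23.5 to 73 ± 10.8 CPM. In contrast HSPD1, the chaperonin HSP60, rose from 676 ± 50.5 to 929.7 ± 13.5 CPM. Of 22 genes of the citric acid cycle and pyruvate entry, 3 rose and 3 fell, 27.3% called. Without DMSO replicate 1, 10 rose and 3 fell, beside 27.6% of all genes higher and 29.7% lower. OGDH, a subunit of the oxoglutarate dehydrogenase complex, rose by 0.69, and PDK1, the kinase that inhibits pyruvate dehydrogenase, fell by 1.13 (edgeR adjusted p 0.000279).

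**Figure D4:**
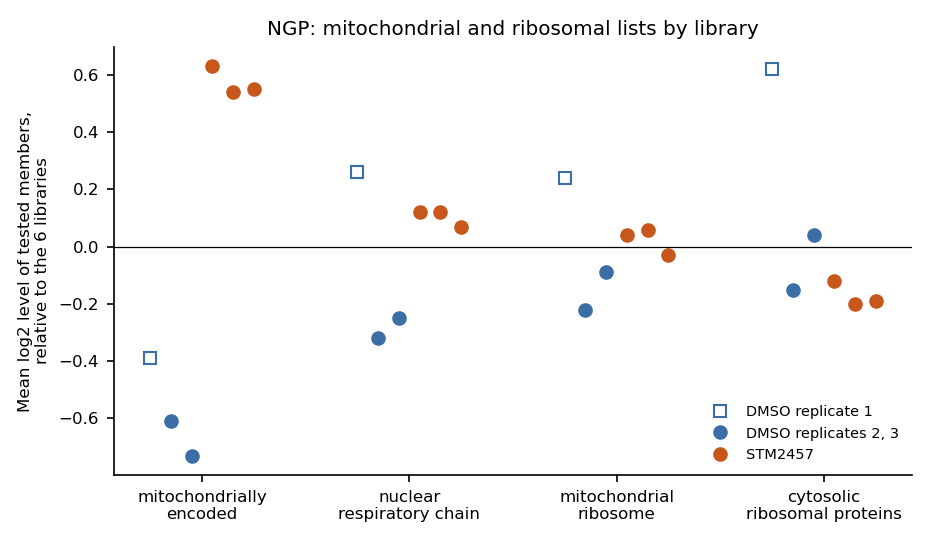
Mean log2 level of the tested members of 4 lists in each NGP library, relative to the mean of the 6 libraries. STM2457 libraries lie above all DMSO libraries for the mitochondrially encoded genes, and DMSO replicate 1 (open square) is the highest library for the other 3 lists.

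Neuronal genes changed in both directions. Of 243 tested, 57 rose and 83 fell, 57.6% called against 41.7%, with a median of -0.11. Leaving out DMSO replicate 1, 69 rose and 101 fell, with 57.3% of all genes called. Synaptic genes had 8 higher and 16 lower of 42, ion channels 6 and 20 of 44, axon guidance and adhesion 10 and 21 of 53, neuronal cytoskeleton 11 and 7 of 28, and transmitter enzymes and peptides 8 and 2 of 22. Without STM2457 replicate 1 or 3, 4 or 5 synaptic genes rose, and 3 ion channels rose without either of these or DMSO replicate 3. In the transmitter list 1 fell without DMSO replicate 3 or STM2457 replicate 1 or 3. Of all genes tested, 19.4% were higher and 22.2% lower. Differences between these lists were not tested.

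The largest falls among synaptic genes were in NPTX1, SYT5 and SV2C. NPTX1, a secreted pentraxin that gathers glutamate receptors, measured 57.2, 54.2 and 63 CPM with DMSO and 2.36, 1.92 and 1.5 CPM with STM2457 (log2 fold change -4.92, SE 0.18, adjusted p 1.99e-06 by edgeR). SV2C, a synaptic vesicle glycoprotein, measured 46.9, 87.4 and 69.5 CPM with DMSO and 4.47, 5.14 and 5.43 CPM with STM2457 (log2 fold change -3.76, SE 0.23, adjusted p 1.65e-05 by edgeR). SYT5, a synaptotagmin that senses calcium, fell from 13.9 ± 1.78 to 0.707 ± 0.0545 CPM (-4.29). For each, the highest STM2457 library lay more than 8-fold under the lowest DMSO library. Some members of the same machinery rose. SYT2, another synaptotagmin, rose from 0.732 ± 0.147 to 6.04 ± 0.559 CPM with 27.0% of its exon length under another gene. SNAP25 and UNC13A, also of this machinery, were not called (-0.25 and -0.17).

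Ion channel genes that fell included KCNJ3, an inwardly rectifying potassium channel, at 11, 14.8 and 12.1 CPM with DMSO and 2.45, 2.03 and 2.42 CPM with STM2457 (log2 fold change -2.46, SE 0.18, adjusted p 3.13e-05 by edgeR). CACNA1H, a T-type calcium channel, measured 88.5, 93.3 and 91 CPM with DMSO and 25.9, 35.3 and 23.3 CPM with STM2457 (log2 fold change -1.69, SE 0.16, adjusted p 0.000103 by edgeR). KCNJ6 fell from 6.56 ± 0.483 to 2.53 ± 0.224 CPM and CACNA2D3 from 2.29 ± 0.352 to 0.584 ± 0.134 CPM. SCN1A, a sodium channel, rose from 22.7 ± 4.68 to 49.4 ± 3.84 CPM, with DMSO replicate 1 the lowest library. KCNH2, the most abundant channel of the list, overlapped between groups.

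In the axon guidance list, CHL1, an L1-family adhesion molecule, measured 8.19, 13.8 and 12.4 CPM with DMSO and 0.774, 0.598 and 0.315 CPM with STM2457 (log2 fold change -4.35, SE 0.34, adjusted p 4.09e-05 by edgeR). EPHA4, an ephrin receptor, measured 39.3, 58.4 and 58.3 CPM with DMSO and 9.5, 10.1 and 9.99 CPM with STM2457 (log2 fold change -2.40, SE 0.17, adjusted p 3.05e-05 by edgeR). SLIT1, a repulsive guidance ligand, fell from 63.6 ± 6.26 to 10.9 ± 2.47 CPM, and CADM2, a synaptic adhesion molecule, from 13.6 ± 3.13 to 1.34 ± 0.203 CPM. SEMA5A and SEMA3F, semaphorins, rose from 2.75 ± 0.721 to 15.1 ± 3.94 CPM and from 14.1 ± 2.09 to 32.7 ± 2.97 CPM. The plexin PLXNA4 has been described among the largest rises.

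Receptors for neurotrophins and other growth factors split evenly, 7 higher and 7 lower of 18, 77.8% called against 41.7%. NTRK2, the receptor for brain-derived neurotrophic factor, measured 25.7, 43.4 and 37.1 CPM with DMSO and 6.06, 5.51 and 4.33 CPM with STM2457 (log2 fold change -2.74, SE 0.22, adjusted p 5.15e-05 by edgeR). RET, the receptor for GDNF-family ligands, measured 70.5, 116 and 93 CPM with DMSO and 194, 189.9 and 187 CPM with STM2457 (log2 fold change 1.03, SE 0.17, adjusted p 0.00164 by edgeR). ALK, a receptor kinase mutated in some neuroblastomas, measured 17.8, 41.3 and 35 CPM with DMSO and 77.7, 72.7 and 73.1 CPM with STM2457 (log2 fold change 1.25, SE 0.26, adjusted p 0.00577 by edgeR). In ALK the DMSO values spread more than 2-fold, and DMSO replicate 1 was the lowest. IGF1R rose from 79.8 ± 17.2 to 156 ± 3.26 CPM.

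The neuronal cytoskeleton and transmitter lists leaned upward. GAP43, a growth cone protein, measured 81.2, 57.4 and 61.7 CPM with DMSO and 136, 133 and 137 CPM with STM2457 (log2 fold change 1.02, SE 0.14, adjusted p 0.000671 by edgeR). STMN1, stathmin, measured 541, 354 and 422 CPM with DMSO and 886, 790.2 and 868 CPM with STM2457 (log2 fold change 0.95, SE 0.15, adjusted p 0.00161 by edgeR). MAPT, the microtubule protein tau, went the other way at 14.7, 18.6 and 19 CPM with DMSO and 3.78, 5.59 and 3.97 CPM with STM2457 (log2 fold change -1.97, SE 0.19, adjusted p 0.00013 by edgeR), and DCLK1 fell from 99.8 ± 23 to 47.2 ± 1.27 CPM. Among transmitter genes, DDC, which makes dopamine from L-DOPA, measured 46.1, 34 and 39.9 CPM with DMSO and 92.2, 86.1 and 95.5 CPM with STM2457 (log2 fold change 1.19, SE 0.13, adjusted p 0.000217 by edgeR). VIP rose from 0.173 ± 0.0233 to 3.56 ± 1.1 CPM, with 20.6% of its exon length under another gene.

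Among 36 neural transcription factors and RNA-binding proteins, 7 rose and 10 fell, 47.2% called, near the 41.7% of all genes (11 and 13 without DMSO replicate 1, 6 and 6 without STM2457 replicate 1). INSM1, a neuroendocrine factor, measured 265, 229 and 277 CPM with DMSO and 78.9, 107 and 71.4 CPM with STM2457 (log2 fold change -1.58, SE 0.16, adjusted p 0.000156 by edgeR). REST, a repressor of neuronal genes, rose from 6.22 ± 1.85 to 18.4 ± 1.54 CPM (log2 fold change 1.56, SE 0.21, adjusted p 0.000736 by edgeR), and GATA2 from 123 ± 14.7 to 269 ± 27 CPM. Of the 10 adrenergic markers, 0 rose and 2 fell, among them DBH. The DBH call, at -0.33, was lost without DMSO replicate 3 or any one of the STM2457 replicates (edgeR adjusted p 0.119 to 0.149). HAND2 and GATA3 were not called (0.35 and -0.21).

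Genes of TGF-beta and BMP signaling, in which ligands bind paired receptor kinases that phosphorylate SMAD proteins, had 16 higher and 9 lower of 40 tested (62.5% called against 41.7%), with 5 lower when DMSO replicate 3 or STM2457 replicate 1 or 3 was left out. Of the ligands, BMP5 rose from 0.0534 ± 0.0236 to 2.27 ± 0.401 CPM (8 reads in the DMSO group and 326 in the STM2457 group), BMP7 fell from 136 ± 5.25 to 81.9 ± 7.04 CPM, and INHBE, an activin subunit, fell from 434 ± 22.7 to 26.4 ± 1.95 CPM with 16.4% of its exon length under another gene. Of the receptors, ENG, endoglin, measured 1.31, 0.68 and 1.05 CPM with DMSO and 9.26, 8.37 and 9.13 CPM with STM2457 (log2 fold change 3.14, SE 0.24, adjusted p 4.04e-05 by edgeR), and BMPR1B fell from 116 ± 13.9 to 53 ± 2.39 CPM. SMAD3 measured 1.67, 1.48 and 2.25 CPM with DMSO and 15.9, 14.6 and 16 CPM with STM2457 (log2 fold change 3.10, SE 0.19, adjusted p 1.38e-05 by edgeR). BAMBI, a decoy receptor that limits the pathway, measured 4.13, 3.58 and 3.32 CPM with DMSO and 25.1, 18.6 and 22.7 CPM with STM2457 (log2 fold change 2.59, SE 0.16, adjusted p 1.79e-05 by edgeR). Transcripts induced by BMP signals in many cells also rose, ID1 by 2.03 and ID3 by 2.57, both named after their values were seen.

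Of 30 mesenchymal regulators and contractile genes, 12 rose and 3 fell, 40.0% higher against 19.4% of all genes, with a median of 0.27 (6 fell without DMSO replicate 1). SNAI1 and SNAI2, repressors of epithelial genes, rose from 17.7 ± 0.97 to 57.8 ± 2.85 CPM and from 4.46 ± 0.901 to 21.9 ± 5.08 CPM. VIM, vimentin, named after its value was seen, rose by 1.58, with 24.6% of its exon length under its antisense gene. JUN, an AP-1 subunit, fell from 258 ± 16.8 to 78.5 ± 19.8 CPM (log2 fold change -1.72, SE 0.17, adjusted p 0.000153 by edgeR), and NOTCH1 from 41.6 ± 4.4 to 16.4 ± 3.4 CPM. In the insulin-like growth factor system, IGFBP3, a binding protein, rose from 11.2 ± 0.451 to 37.1 ± 4.81 CPM and IRS2, an adaptor of the receptor, fell from 92.7 ± 10.5 to 26.6 ± 6.87 CPM. IGF2, with 41.6% of its exon length under other genes, measured 379, 397 and 417 CPM with DMSO and 426, 799.6 and 398 CPM with STM2457. Its groups overlapped, and STM2457 replicate 2 alone was high.

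The integrated stress response fell together. In this pathway, kinases that sense lack of amino acids or misfolded protein phosphorylate eIF2, which favors translation of the transcription factor ATF4, and ATF4 then induces amino acid transporters, biosynthetic enzymes and tRNA synthetases. Of 48 tested genes, 42 fell and 1 rose, 87.5% lower against 22.2% of all genes tested. The median log2 fold change was -1.56. It ran from -1.56 to -1.53 over the other scalings and filters, DESeq2, the replicate block, the joint fit and halved counts. With the exon length offset it was -1.52. ATF4 itself measured 735, 477 and 511 CPM with DMSO and 346, 332 and 323 CPM with STM2457 (log2 fold change -0.78, SE 0.16, adjusted p 0.00506 by edgeR). DDIT3, which encodes CHOP, measured 104, 63.4 and 58.1 CPM with DMSO and 7.48, 6.57 and 7.42 CPM with STM2457 (log2 fold change -3.39, SE 0.23, adjusted p 2.67e-05 by edgeR), with 39.6% of its exon length under other genes. CHAC1, which degrades glutathione, measured 95.3, 76.3 and 82.2 CPM with DMSO and 10.1, 11 and 8.72 CPM with STM2457 (log2 fold change -3.09, SE 0.14, adjusted p 4.04e-06 by edgeR). ASNS, asparagine synthetase, fell from 423 ± 43.6 to 178 ± 9.32 CPM, with 49.3% of its exon length under another gene, and SLC7A11, the cystine transporter, from 99.9 ± 28.4 to 16.3 ± 1.67 CPM. ATF4, DDIT3, CHAC1 and ASNS are named as core members, after their values were seen. The 5 members not called were PPP1R15B, EIF2AK3, PHGDH, CBS and ALDH18A1, between -0.38 and -0.04. EIF2AK4, the kinase that senses uncharged tRNA, was the 1 that rose (0.44), and this call was lost without DMSO replicate 3 or any one of the STM2457 replicates (edgeR adjusted p 0.0664 to 0.0836).

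Of 20 cytosolic tRNA synthetases, which charge tRNAs with amino acids, 15 fell and 1 rose, 75.0% lower against 22.2% of all genes, with a median of -0.88. The 1 that rose was QARS1, whose call was lost with any library but DMSO replicate 1 left out (edgeR adjusted p 0.0764 to 0.14), and without DMSO replicate 1 the count was 2. GARS1 measured 812, 719 and 716 CPM with DMSO and 243, 246 and 248 CPM with STM2457 (log2 fold change -1.61, SE 0.09, adjusted p 1.2e-05 by edgeR). AARS1 measured 642, 518 and 540.1 CPM with DMSO and 215, 225 and 217 CPM with STM2457 (log2 fold change -1.37, SE 0.11, adjusted p 4.47e-05 by edgeR). CARS1 measured 81.4, 62.9 and 73.7 CPM with DMSO and 29.4, 34.9 and 27 CPM with STM2457 (log2 fold change -1.26, SE 0.14, adjusted p 0.000263 by edgeR). The groups did not overlap in any of these genes and lay closest in CARS1. VARS1 and RARS1 were not called (0.07 and -0.04).

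The promoters of these genes were searched for the composite element bound by ATF4 with C/EBP proteins, TGATGNAAN on either strand, in windows from 250 bases before to 50 after the start (RefSeq, GRCh38.p14). The element was found in 8 of 39 stress response promoters (20.5%) and in 6 of 16 synthetase promoters (37.5%), against 3.67% of all 27305 promoters and 1.74% of 10813 promoters of genes tested in NGP. A match describes the letters only and shows no binding. Shown 5′ to 3′ on the gene's strand, with the element in capitals, are those of 3 stress response genes and 2 synthetases that fell, FGF21 at chr19:48755274-48755573 (plus strand), ATF3 at chr1:212565157-212565456 (plus strand), CHAC1 at chr15:40953221-40953520 (plus strand), AARS1 at chr16:70289457-70289756 (minus strand) and CARS1 at chr11:3057374-3057673 (minus strand). ATF3 is a transcription factor of the stress response that fell by 3.15.
FGF21: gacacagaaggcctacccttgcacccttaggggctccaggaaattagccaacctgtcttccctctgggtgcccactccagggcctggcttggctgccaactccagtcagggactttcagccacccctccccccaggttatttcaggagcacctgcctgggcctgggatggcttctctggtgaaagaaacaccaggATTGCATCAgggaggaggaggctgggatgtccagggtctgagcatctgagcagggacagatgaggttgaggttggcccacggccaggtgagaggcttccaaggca
ATF3: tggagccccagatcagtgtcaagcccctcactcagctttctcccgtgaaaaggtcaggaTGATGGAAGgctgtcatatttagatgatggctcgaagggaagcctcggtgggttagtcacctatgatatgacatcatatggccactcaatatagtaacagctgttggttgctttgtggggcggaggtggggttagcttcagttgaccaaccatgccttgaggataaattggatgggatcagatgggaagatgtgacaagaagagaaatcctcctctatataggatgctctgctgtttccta
CHAC1: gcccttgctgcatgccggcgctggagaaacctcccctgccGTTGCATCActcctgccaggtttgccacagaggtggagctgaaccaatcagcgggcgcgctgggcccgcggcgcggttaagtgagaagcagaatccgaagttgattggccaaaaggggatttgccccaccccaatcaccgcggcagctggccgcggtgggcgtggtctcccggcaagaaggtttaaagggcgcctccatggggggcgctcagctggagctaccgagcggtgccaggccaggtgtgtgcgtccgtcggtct
AARS1: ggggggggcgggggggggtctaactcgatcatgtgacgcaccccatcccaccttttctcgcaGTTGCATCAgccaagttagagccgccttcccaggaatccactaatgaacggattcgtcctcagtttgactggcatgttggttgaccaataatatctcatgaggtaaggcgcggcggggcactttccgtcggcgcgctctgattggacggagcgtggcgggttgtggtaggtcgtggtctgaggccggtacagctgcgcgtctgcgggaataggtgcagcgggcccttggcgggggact
CARS1: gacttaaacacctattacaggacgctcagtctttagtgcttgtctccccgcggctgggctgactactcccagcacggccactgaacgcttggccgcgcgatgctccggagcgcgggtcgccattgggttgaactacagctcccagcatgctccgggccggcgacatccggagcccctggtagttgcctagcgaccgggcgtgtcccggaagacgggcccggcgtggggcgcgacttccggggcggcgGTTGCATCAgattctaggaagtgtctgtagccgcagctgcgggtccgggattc
The element starts 55 bases before the start of FGF21, 191 before that of ATF3, 210 before that of CHAC1, 188 before that of AARS1 and 3 before that of CARS1, and in ATF3 alone it reads on the gene's own strand.

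Of 33 tested genes of the endoplasmic reticulum, 15 fell and 5 rose, 45.5% lower against 22.2% of all genes and 15.2% higher against 19.4%. Without DMSO replicate 1, 20 fell and 10 rose, beside 29.7% of all genes lower and 27.6% higher. ERN1, the stress sensor IRE1, measured 99, 167 and 127 CPM with DMSO and 10.9, 13.2 and 9.5 CPM with STM2457 (log2 fold change -3.55, SE 0.22, adjusted p 1.5e-05 by edgeR). HERPUD1, a component of the degradation machinery, measured 691, 613 and 634 CPM with DMSO and 87.6, 94.1 and 89.4 CPM with STM2457 (log2 fold change -2.84, SE 0.10, adjusted p 1.48e-06 by edgeR). XBP1, the transcription factor activated by IRE1, measured 553, 474 and 484 CPM with DMSO and 103, 112 and 104 CPM with STM2457 (log2 fold change -2.25, SE 0.10, adjusted p 4.07e-06 by edgeR). EDEM1, which hands misfolded glycoproteins to degradation, fell from 146 ± 27.7 to 32.2 ± 1.43 CPM. The lectin chaperone CALR rose from 233 ± 34.5 to 478 ± 6.36 CPM (log2 fold change 1.04, SE 0.12, adjusted p 0.000278 by edgeR), and the disulfide isomerase PDIA4 from 109 ± 3.03 to 201 ± 9.49 CPM. CANX, calnexin, was not called (-0.16).

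Lipid synthesis genes rose. Of 30 genes of cholesterol synthesis and uptake tested, 18 rose and 5 fell, 60.0% higher against 19.4% of all genes tested, with a median of 0.89, and 3 fell without any one of the STM2457 replicates. MSMO1, a sterol oxidase of the pathway, measured 17.1, 17.7 and 18.7 CPM with DMSO and 58.8, 60.5 and 63.7 CPM with STM2457 (log2 fold change 1.78, SE 0.10, adjusted p 1.06e-05 by edgeR). FDFT1, squalene synthase, rose from 92.3 ± 16.1 to 259.6 ± 12.3 CPM, and HMGCS1, which makes the precursor of mevalonate, by 2.07, with 37.7% of its exon length under other genes. ABCG1 and ABCA1, which export cholesterol, had log2 fold changes of -1.42 and -1.06. The ABCA1 call was lost without STM2457 replicate 2 (edgeR adjusted p 0.0562). Of 20 fatty acid synthesis genes, 13 rose and 1 fell (2 without DMSO replicate 1, 0 without STM2457 replicate 1 or 3). These were 65.0% higher against 19.4% of all genes. ELOVL6, an elongase, rose from 33 ± 3.8 to 91.6 ± 3.61 CPM, and ACLY, which makes cytosolic acetyl-CoA, from 628 ± 55 to 1126 ± 26.6 CPM. SREBF2, the transcription factor of the cholesterol pathway, was not called (-0.10). The sterol response element (TCACNCCAC, either strand) was found in 1 of 23 promoters of the cholesterol list (4.35%), against 1.15% of all promoters and 1.01% of those of genes tested.

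Glycolytic and antioxidant genes also leaned upward. Of 33 genes of glycolysis and hypoxia, 18 rose and 4 fell, 54.5% higher against 19.4% of all genes. LDHA, lactate dehydrogenase A, measured 276, 229 and 241 CPM with DMSO and 609, 582 and 628 CPM with STM2457 (log2 fold change 1.28, SE 0.10, adjusted p 5.05e-05 by edgeR), and PFKM, a phosphofructokinase, 124, 124 and 129.9 CPM with DMSO and 263, 251 and 262 CPM with STM2457 (log2 fold change 1.04, SE 0.09, adjusted p 5.52e-05 by edgeR). HK2, a hexokinase, fell from 209 ± 35.8 to 95 ± 10.9 CPM (-1.14), and SLC2A1, the glucose transporter GLUT1, had a log2 fold change of -0.77 with 10.8% of its exon length under another gene. Of 25 NRF2 targets and AKR enzymes, 17 rose and 2 fell, 68.0% higher against 19.4%, with 1 lower without DMSO replicate 2 or 3 or STM2457 replicate 1 or 3. The antioxidant response element (TGACNNNGC, either strand) was found in 3 of 18 promoters of this list (16.7%), against 13.6% of all promoters and 14.8% of those of genes tested. HMOX1, heme oxygenase, rose from 1.01 ± 0.493 to 3.41 ± 0.158 CPM, and NQO1, a quinone reductase, by 2.46 with 19.4% of its exon length under another gene. SLC7A11 is on this list too and fell.

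Cell cycle genes rose together. Of 48 DNA replication and G1/S genes, 34 rose and 1 fell (70.8% higher against 19.4%), with a median of 0.77. Of 49 mitosis and G2/M genes, 37 rose and 1 fell (75.5%), with a median of 0.67. Leaving out DMSO replicate 1, 38 and 42 rose and 1 fell in each list, and with another library left out 0 to 2 fell. UHRF1, which maintains DNA methylation at replication forks, measured 69.9, 64 and 80.8 CPM with DMSO and 234, 268 and 222 CPM with STM2457 (log2 fold change 1.75, SE 0.12, adjusted p 3e-05 by edgeR). CLSPN, claspin, a checkpoint mediator, measured 25.6, 27.5 and 29.3 CPM with DMSO and 88.5, 79.1 and 89.9 CPM with STM2457 (log2 fold change 1.64, SE 0.11, adjusted p 2.05e-05 by edgeR). TK1, thymidine kinase, rose from 27.6 ± 8.82 to 84.4 ± 4.32 CPM, and LIG1, DNA ligase I, from 33 ± 5.7 to 93.3 ± 3.37 CPM. MKI67, the proliferation marker, measured 89.3, 130.1 and 115 CPM with DMSO and 292, 297 and 314 CPM with STM2457 (log2 fold change 1.43, SE 0.14, adjusted p 0.000129 by edgeR). KIF20A, a kinesin of cytokinesis, rose from 71.5 ± 9.72 to 202 ± 7.24 CPM, CENPF, a kinetochore protein, from 214 ± 41.4 to 554 ± 17.7 CPM, and ESPL1, separase, from 83.1 ± 1.61 to 192 ± 4.57 CPM. CDC25B, a phosphatase of mitotic entry, was the G2/M member that fell (-0.61).

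The E2F site (TTTGGCGC or TTTCCCGC, either strand) was found in 20 of 41 promoters of the G1/S list (48.8%) and 4 of 42 of the G2/M list (9.52%), against 2.31% of all promoters and 3.52% of those of genes tested in NGP. The promoters of UHRF1 (chr19:4909251-4909550, plus strand) and CLSPN (chr1:35769929-35770228, minus strand), the members with the largest rises, are shown with the site in capitals. The match lies 14 and 5 bases before the start.
UHRF1: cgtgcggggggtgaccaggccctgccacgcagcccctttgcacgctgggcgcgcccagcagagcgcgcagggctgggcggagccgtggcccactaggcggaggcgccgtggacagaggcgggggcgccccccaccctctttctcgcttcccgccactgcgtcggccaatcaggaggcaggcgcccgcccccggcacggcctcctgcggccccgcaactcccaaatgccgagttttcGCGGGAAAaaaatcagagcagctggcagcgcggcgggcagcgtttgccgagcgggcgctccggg
CLSPN: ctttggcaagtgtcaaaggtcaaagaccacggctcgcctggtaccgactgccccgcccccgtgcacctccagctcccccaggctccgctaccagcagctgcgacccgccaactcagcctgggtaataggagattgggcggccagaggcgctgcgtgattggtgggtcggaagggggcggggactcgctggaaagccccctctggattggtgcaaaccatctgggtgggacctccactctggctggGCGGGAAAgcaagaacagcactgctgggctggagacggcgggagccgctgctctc

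Among D cyclins, cyclin-dependent kinases and their inhibitors, 2 rose and 5 fell of 16 (43.8% called, near the 41.7% of all genes), with 2 lower when DMSO replicate 3 or STM2457 replicate 1 or 3 was left out. CDKN1A, the inhibitor p21, measured 193, 169 and 171 CPM with DMSO and 67.7, 69.8 and 62.7 CPM with STM2457 (log2 fold change -1.41, SE 0.10, adjusted p 3.13e-05 by edgeR), and CDKN3, a phosphatase that acts on CDKs, fell from 38.2 ± 4.63 to 19.4 ± 0.347 CPM. CDK4 and CCND1 were abundant and not called (0.11 and -0.16). Of 28 p53 targets tested, 12 fell and 4 rose, 42.9% lower against 22.2% of all genes and 14.3% higher against 19.4%. GDF15, BBC3, SESN2 and CDKN1A had the largest falls among members of at least 1 CPM, and the first 3 of these are on the integrated stress response list as well. PLK2, a polo-like kinase, rose from 5.47 ± 0.219 to 27.8 ± 3.15 CPM (log2 fold change 2.35, SE 0.13, adjusted p 1.03e-05 by edgeR), and MDM2, which targets p53 for degradation, was not called at 986 ± 109 CPM in the DMSO group and 1008 ± 50.9 CPM in the STM2457 group. In the MYC network, 1 rose and 5 fell of 12, 41.7% lower against 22.2% of all genes, with 0 higher without DMSO replicate 2 or 3 or STM2457 replicate 1 or 2. MYCL fell from 44.2 ± 1.52 to 14.5 ± 1.71 CPM (log2 fold change -1.61, SE 0.12, adjusted p 3.88e-05 by edgeR) and MXD1, an antagonist of MYC, from 44.7 ± 8.58 to 15.5 ± 0.654 CPM.

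Cytosolic ribosomal protein genes gave a count that turned on single libraries. Of 78, 23 fell and 0 rose, 29.5% lower against 22.2%, with a median of -0.40. Without DMSO replicate 1, 29 fell and 8 rose, with a median of -0.11, where 29.7% of all genes were lower and 27.6% higher. Without DMSO replicate 2, 45 fell, and without STM2457 replicate 1, 2 or 3, 6, 7 or 5 fell. All 78 were highest in DMSO replicate 1 among the DMSO libraries, and its median excess over them was 0.72 on the log2 scale. RPS18, of the small subunit, measured 3106, 1972 and 2323 CPM with DMSO and 1315, 1232 and 1239 CPM with STM2457 (log2 fold change -0.97, SE 0.16, adjusted p 0.00186 by edgeR). RPS3 measured 3883, 2118 and 2462 CPM with DMSO and 2132, 1935 and 2066 CPM with STM2457, and its groups overlapped.

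Interferon-stimulated genes rose in 14 of 30 cases and fell in 2, 46.7% higher against 19.4%, with a median of 0.54, mostly at low levels. Without STM2457 replicate 1 or 3, 9 rose. BST2, tetherin, rose from 1.35 ± 0.214 to 3.65 ± 0.0958 CPM. IFI16, a DNA sensor, had 0 reads in the DMSO group and 77 in the STM2457 group, at least 26.2-fold higher. SAMD9 and IFI44L, also at 0 reads with DMSO, were at least 18.4-fold higher and at least 17.7-fold higher. With these genes at their bounds the median of the list stayed at 0.54. IFI16, SAMD9 and IFI44L were named outside the naming rule, after their values were seen. In another list MLXIPL went the other way, with 47 reads in the DMSO group and 0 in the STM2457 group. IRF1, an interferon-induced transcription factor, had a log2 fold change of -2.74, with 22.1% of its exon length under other genes. B2M, the light chain of MHC class I, measured 68.7, 54.4 and 53.9 CPM with DMSO and 115, 97.2 and 109.7 CPM with STM2457 (log2 fold change 0.86, SE 0.13, adjusted p 0.00107 by edgeR). The interferon-stimulated response element, taken as GAAA, any 2 bases and GAAA on either strand, was found in 13 of 23 promoters of this list (56.5%), against 3.65% of all promoters and 2.55% of those of genes tested.

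The m6A machinery had 6 higher and 1 lower of 19 tested, 36.8% called against 41.7%, and 3 or 4 higher and 0 lower without DMSO replicate 3 or any one of the STM2457 replicates. IGF2BP1, a reader that stabilizes bound transcripts, measured 271, 345 and 319 CPM with DMSO and 479.6, 504 and 499 CPM with STM2457 (log2 fold change 0.66, SE 0.11, adjusted p 0.00176 by edgeR). FTO, an eraser, and YTHDF2, a reader that promotes decay, were not called (0.28 and -0.04).

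**Figure D5:**
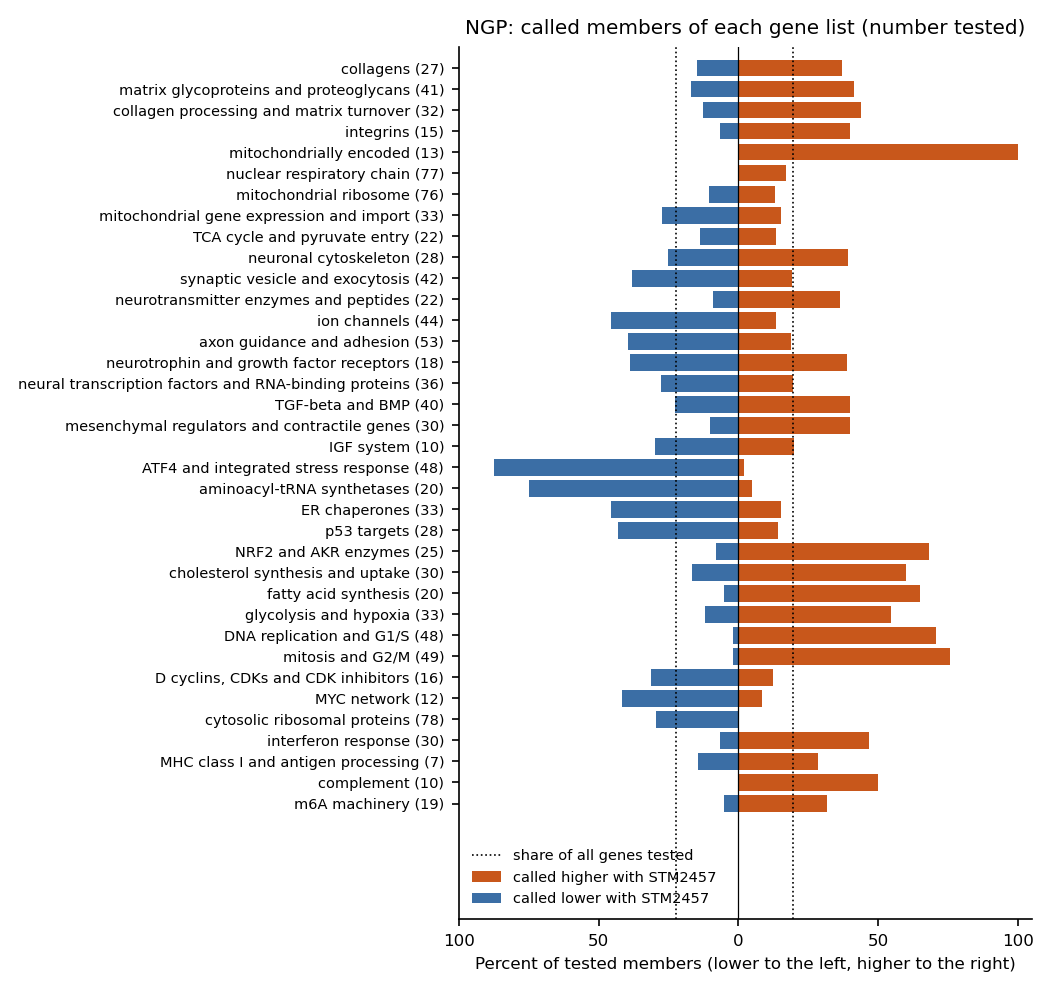
Percent of the tested members of each list, cell type markers left out, called higher (orange, right) or lower (blue, left) with STM2457, with the share of all genes tested as dotted lines (19.4% higher and 22.2% lower). The integrated stress response and the tRNA synthetases extend farthest to the left, at 87.5% and 75.0%, and the mitochondrially encoded genes reach 100% on the right.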

How the data were processed

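RNA of NGP cells was measured in 3 STM2457 and 3 DMSO libraries, with groups taken from the titles. The libraries were made from polyadenylated RNA using a SMART kit, per the labels' protocols. Reads were counted by the authors, per the file headers, with featureCounts 2.0.5 on exons of protein-coding genes of GENCODE 33, grouped by gene name, without a strand option and without counting read pairs as one. The deposited values are whole-number counts, not normalized, on GRCh38. The submitters' processing notes also list Trimmomatic 0.36, HISAT2 2.1.0 and Subread 1.5.3, without roles. Of the counts from 1 to 20, 73.1% to 75.0% were even in the NGP libraries, so reads were often counted in pairs, and counting intervals would be too narrow. Without strand, reads of overlapping genes on opposite strands cannot be told apart, so genes with over 10% of their exon length under another gene of GENCODE 44 are marked uncertain. Among members named as not called, this also holds for THY1, ACTA2, HAND2, EIF2AK3, CDK4, YTHDF2 and CCND1.

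The model of edgeR 4.0.16 (R 4.3.3) was fitted to the counts of the 6 NGP libraries with filterByExpr (minimum count 10), TMM scaling and the quasi-likelihood test, with Benjamini-Hochberg adjustment over all genes tested and a threshold of 0.05. The difference from SK-N-BE2 used all 12 libraries, for which the count headers carry a different batch name per line. The headers do not say what the batch was. The labels name no spike-in, so changes are read as relative. The statistics were tested on simulated counts. Depth was 47242379 to 51295198 reads per library, and 3 replicates per group limit the precision. The mitochondrial share was compared with an exact permutation test. CPM values are on the TMM scale, and a fold against a group at 0 reads is a lower bound against 3 reads per group.

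Same-numbered libraries did not deviate together (correlations 0.00408, -0.115 and 0.0227), so no pairing was used. The members, the 42 gene lists and the tests were chosen with earlier results of these data known. Of 1304 listed symbols, 1300 were found. Named were METTL3, MYCN, the 10 largest rises and falls without overlap that reached 10 CPM in either group, and, per list, up to 4 called genes in each direction of at least 1 CPM and up to 2 abundant genes not called. Not all of the latter are printed, mainly those whose call was lost when 1 library was left out. Y-linked genes and XIST were skipped, and some genes that the rule takes are not reported here. Alternatives were RLE and upper-quartile scaling, no filter, a mean of 1 CPM, DESeq2 1.42.0, robust dispersion, a joint fit of 12 libraries, halved counts, a minimum log2 fold change of 1, a replicate block, leaving out each library and, added after seeing the data, an exon length offset in 20 bins.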

Additional observations from a re-analysis of the deposited data

Results flagged for a closer look

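For 16 of the 20 genes with the largest changes in NGP, the response differed from that of SK-N-BE2 by an edgeR quasi-likelihood test of the difference over all 12 libraries, in which 30.9% of genes were called. The dose was 12 µM in SK-N-BE2 and 1 µM in NGP, and the count headers carry a different batch name for each line. The line therefore cannot be told apart from the dose or the batch. The genes were chosen by their change in NGP.

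Among the 10 rises, the difference (NGP minus SK-N-BE2, log2) was largest for FOS, at 5.54 (SE 0.37), with a rise in NGP (3.53) and a fall in SK-N-BE2 (-2.02). It was 4.66 for C7, 3.71 for RIPOR3, 3.47 for COL3A1 and 3.31 for AHNAK, the last with little change in SK-N-BE2 (0.11). The difference was 2.78 for ITGA8, 2.68 for AKR1C3 and 2.60 for MAP2K6. FN1 (2.18) and PLXNA4 (2.08) rose in SK-N-BE2 as well, by 1.70 and 1.51. They were not alone in this direction. SK-N-BE2 reads per group, not scaled to depth, went from 4308 with DMSO to 9411 with STM2457 for COL3A1. They went from 440 to 1135 for AKR1C3, 1669 to 3445 for MAP2K6 and 815 to 1401 for ITGA8. For C7 they went from 16445 to 23432, and for RIPOR3 from 60 to 99.

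Among the 10 falls, the difference was -4.85 for DHRS2, -4.38 for BEST1, -3.90 for BBC3, -2.80 for CDC42EP1 and -1.48 for TRIB3, all of which fell by less in SK-N-BE2. For FGF21 it was 3.81 in the other direction (SE 0.72, edgeR adjusted p 0.00129), and it rests on 2 reads in the STM2457 group of SK-N-BE2. KLHDC7B, GDF15 and FUT1 were not called for the difference (edgeR adjusted p 0.867, 0.776 and 0.923), with differences of 0.18 (SE 0.62), -0.15 (SE 0.34) and 0.05 (SE 0.29). DSC1 had 0 reads in SK-N-BE2.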

How the results depend on the processing

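Genes called numbered 5671, and 5291 to 6782 under the other scalings, filters, tools and offsets and the joint fit of 12 libraries, but 738 with a minimum absolute log2 fold change of 1, and 3816 to 7897 when 1 library was left out. The 63 matrix genes called became 57 to 71 (56 to 78 with 1 library left out), and the 140 neuronal genes 131 to 160 (108 to 170). The 13 respiratory chain genes called became 21 in the joint fit of 12 libraries and 31 with the exon length offset, and 6 to 47 with 1 library left out. The difference from SK-N-BE2 called 4549 genes, 4025 to 5214 under the other settings and 3701 to 6274 with 1 library left out. The rise of the mitochondrial share, 3.66 points, ran from 3.47 to 3.9 with 1 library left out and was 3.78 without the 10 largest nuclear genes. With the replicate number as a block, which does not pair these libraries, 5026 genes, 63 matrix, 15 respiratory chain and 131 neuronal genes were called, and 4025 for the difference. The highest correlation of any DMSO with any STM2457 library was 0.147.

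Among the genes named, signs turned only for genes not called. With the exon length offset these were RARS1 (0.01) and MDM2 (-0.03). With 1 library left out the log2 fold change ran from -0.04 to 0.2 for COL6A1, -0.22 to 0.14 for COL6A2, -0.23 to 0.03 for THY1, -0.2 to 0.39 for ACTA2, -0.28 to 0.06 for PHGDH, -0.05 to 0.21 for VARS1, -0.07 to 0.04 for RARS1, -0.05 to 0.1 for MDM2 and -0.07 to 0.02 for YTHDF2. The cause was not tested. Of 264 pairs of a list and a library left out, the count called moved by more than 1.5 times in 41. Depth limits genes of few reads, and 3 replicates limit the rest.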

Other observations

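STM2457 replicate 2 stood apart from the other STM2457 libraries in a small set of genes. Of genes with at least 10 CPM, 24 differed from the other libraries of the group by more than 1 on the log2 scale and all 24 were higher, against 1 for STM2457 replicate 1 and 6 for STM2457 replicate 3, all of them lower. FTH1, ferritin heavy chain, measured 221, 189 and 212 CPM with DMSO and 50.4, 204 and 41.9 CPM with STM2457. The DMSO libraries and STM2457 replicate 2 lay together and the other STM2457 libraries far below, the log2 fold change was -1.07 (SE 0.53), and FTH1 was not called. BEST1, whose exons overlap FTH1 on the other strand, showed no such split at 52.7, 45.1 and 46.8 CPM with DMSO and 0.945, 1 and 0.925 CPM with STM2457. VGF, a neuropeptide precursor, measured 99.2 CPM in STM2457 replicate 2 and 40.6 and 32.0 CPM in the others. CCDC85B measured 57.4 CPM against 14.8 and 9.62 CPM, and PCSK1N, an inhibitor of prohormone convertase, 26.3 CPM against 5.18 and 4.01 CPM. These genes were named after their values were seen.

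DMSO replicate 1 was lower in CNTNAP5 (3.81 CPM against 15.9 and 14.8 CPM in the other DMSO libraries), BDP1 (9.44 against 37.9 and 31.4 CPM) and USP37 (13.2 against 44.8 and 39.8 CPM). S100A4, a short calcium-binding protein gene, was higher in it (22.1 against 5.34 and 12.4 CPM).

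The median log2 fold change by exon length depended on that library. In 5 equal groups of tested genes it was -0.05 in the shortest and 0.02 in the longest with all 6 libraries. When DMSO replicate 1 was left out the order turned, with 0.09 in the shortest and -0.08 in the longest.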
